A study of Homo sapiens with 36 samples.

Results

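Developmental homeobox genes were followed across 3 RNA-seq experiments in cisplatin-resistant testicular germ cell tumor (TGCT) cells. They were the protein-coding genes whose symbol belongs to the HOXA to HOXD, PAX, LHX, DLX, sine oculis-related (SIX2 and its relatives), NKX, IRX, MSX, OTX, EMX, MEIS, or PITX families. Of 100 such genes in the RefSeq annotation, 63 were listed in at least 1 of the 3 gene tables, which hold 18078 distinct genes. There were 54 in the table of NT2/D1-A4 cells, 43 in that of 2102EP-C1 cells, and 47 in that of 2102EP-C1 cells with a knockdown. All 3 tables listed 38 of them, and 37 of the 100 were in no table and were not analysed here.

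The cells were NT2/D1-A4 and 2102EP-C1, each a single cisplatin-resistant clone of a human embryonal carcinoma line, the pluripotent type of TGCT. In the first 2 experiments, each clone had a vehicle control arm (labelled VC and called untreated below), an arm with a 6 h pulse of cisplatin at 0.5 µM, an arm that received GSK-J4 at 1 µM over 3 days, and an arm with GSK-J4 before the cisplatin pulse. In the third, 2102EP-C1 cells held either pLKO.1, an empty vector, or hairpins against KDM6A and KDM6B, 1 for each gene (sh6A+6B), and received PBS, called untreated too, or the same cisplatin dose. All cells were harvested 24 h after cisplatin, and the 4 arms of every experiment were each measured in 3 libraries, described as biological replicates. The hairpins were delivered by lentivirus into drug-selected populations, and every control shares the resistance of its clone.

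Homeobox genes encode transcription factors that assign position and identity to cells of the embryo, and the HOX genes among them sit in chromosomal clusters and are activated in order along the body axis. In pluripotent cells most of them are held at low levels by polycomb repressive complexes, of which PRC2 places the mark H3K27me3 at their CpG-rich starts. KDM6A and KDM6B remove this mark, and GSK-J4 inhibits both enzymes. NT2/D1 cells are a long-used model of HOX gene activation by retinoic acid.

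The sequences just upstream of transcription starts show the CpG-rich character of many of these genes. RefSeq (GRCh38.p14) held promoter entries for 43 of the 63 genes, 64 sequences in all, and 20 genes, HOXC13 among them, had no entry. In the 250 bases before the start, the motif CG occurred a median of 19 times in the promoters of the homeobox genes and 11 times over all 35093 promoters. The genes below were among those with high levels or large changes in the libraries. In the first 3, capitals mark CG, which reads the same on both strands. HOXA4 had 26 CG pairs, MSX2 17, and NKX1-2 36.
NKX1-2, chr10:124450036-124450285, minus strand: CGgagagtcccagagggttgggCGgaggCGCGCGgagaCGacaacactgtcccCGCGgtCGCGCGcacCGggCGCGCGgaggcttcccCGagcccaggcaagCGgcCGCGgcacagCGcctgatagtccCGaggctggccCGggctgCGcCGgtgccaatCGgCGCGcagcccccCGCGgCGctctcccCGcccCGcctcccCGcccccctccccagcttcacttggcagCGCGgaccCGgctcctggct
MSX2, chr5:174724332-174724581, plus strand: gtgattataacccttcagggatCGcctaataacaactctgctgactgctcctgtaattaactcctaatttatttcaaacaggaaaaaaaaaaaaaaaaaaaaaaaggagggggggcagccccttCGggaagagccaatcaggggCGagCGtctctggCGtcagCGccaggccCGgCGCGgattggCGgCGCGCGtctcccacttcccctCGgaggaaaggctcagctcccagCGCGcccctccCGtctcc
HOXA4, chr7:27130758-27131007, minus strand: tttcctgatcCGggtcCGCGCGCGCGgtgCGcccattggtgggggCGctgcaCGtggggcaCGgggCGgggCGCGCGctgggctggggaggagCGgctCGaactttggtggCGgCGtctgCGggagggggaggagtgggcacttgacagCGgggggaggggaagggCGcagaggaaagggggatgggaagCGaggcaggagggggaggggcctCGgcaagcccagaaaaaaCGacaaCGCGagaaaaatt
HOXB1, with 7 CG pairs, is shown instead with TGATNNAT in capitals, the type of site bound by HOX proteins together with PBX partners. This motif, searched on both strands and without overlap with another motif, was in 5 of the 64 promoters (7.81%) and in 6.48% of all promoters, so the share was near that of promoters at large.
HOXB1, chr17:48531012-48531261, minus strand: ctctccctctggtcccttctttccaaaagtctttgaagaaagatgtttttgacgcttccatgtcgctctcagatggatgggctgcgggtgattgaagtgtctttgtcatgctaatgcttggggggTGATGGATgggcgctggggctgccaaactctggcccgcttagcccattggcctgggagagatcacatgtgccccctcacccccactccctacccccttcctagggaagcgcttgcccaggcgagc

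The files held log2 values of reads scaled to a common library size of 1000000 (log2 CPM), and the counts behind them could be recovered. The median depth was 35.3 M reads per library in NT2/D1-A4 cells, 37.2 M in 2102EP-C1 cells, and 88.4 M in the knockdown experiment, so low genes were measured best in the last. A gene is written as called, or as having risen or fallen, when it differed by more than 1.3-fold and its adjusted p (limma, over all genes of the table) was under 0.05. Of 10 embryonal carcinoma markers, 9 were listed in each table, and their summed CPM was 7952 to 8134 untreated and 6936 to 7095 after GSK-J4 in NT2/D1-A4 cells, 9862 to 10169 and 8844 to 8947 in 2102EP-C1 cells, and 9179 to 9192 with pLKO.1 and 8439 to 8496 with sh6A+6B. Replicates 1 and 3 of the NT2/D1-A4 arm given both agents stood apart from each other, with a chi-square of 26.8 per gene between their counts, against 2.99 to 10.3 for the other replicate pairs of that experiment and 1.68 to 10.6 in the other tables. The targeted genes followed their labels. KDM6A had 7.16, 7.17, and 7.14 log2 CPM in the pLKO.1 libraries and 6.14, 6.09, and 6.20 in the sh6A+6B libraries, and KDM6B fell from 4.61, 4.66, and 4.63 to 3.51, 3.60, and 3.75. The log2 fold changes were -1.01 ± 0.03 (SE) for KDM6A and -1.01 ± 0.05 for KDM6B, with adjusted p of 2.13e-18 and 1.78e-14 (limma). With GSK-J4, which acts on the proteins, KDM6B RNA rose, with a log2 fold change of 0.88 in NT2/D1-A4 and 0.81 in 2102EP-C1 cells.

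Without treatment, a few homeobox genes were well expressed and most were near the limit of detection. Levels between genes were compared per length, as CPM per kilobase of transcript. NKX1-2, a factor of caudal neural progenitors, had a mean of 24.6 in NT2/D1-A4, 35.9 in 2102EP-C1, and 30.9 in pLKO.1 cells, the highest mean of both 2102EP-C1 tables. IRX2, HOXB1, MSX2, and OTX2 were among the 7 highest in all 3 tables, at means of 4.3 to 24.5. HOXB2 had the highest mean in NT2/D1-A4 cells, 31.9, against 3.31 in untreated 2102EP-C1 cells; the tables were normalized separately, so this difference was not tested. At the other end, 15 of 54, 11 of 43, and 13 of 47 genes had a mean log2 CPM under 0 over the 12 libraries, and these are marked as low where they are named.

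**Figure D1:**
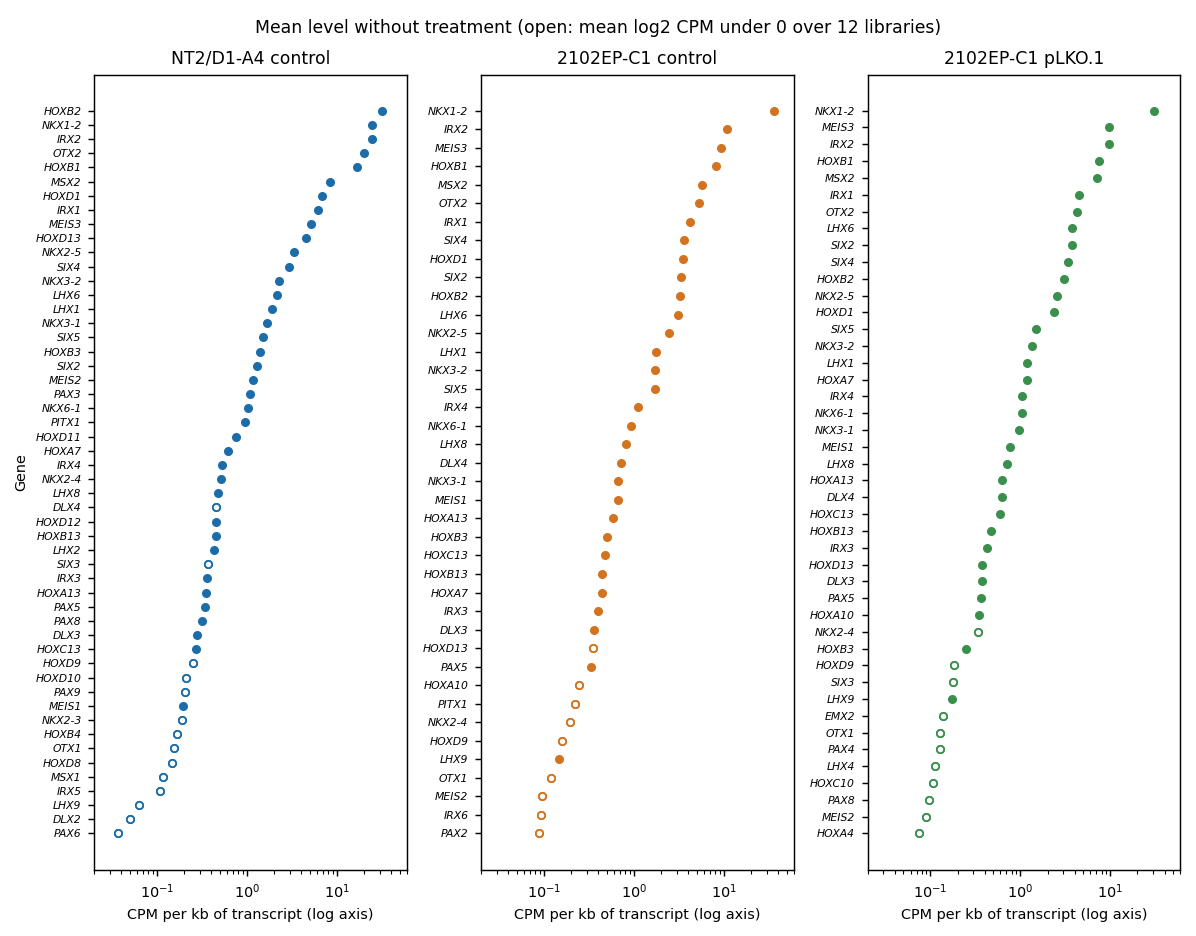
Mean level of the homeobox genes reported here in the control arm of each experiment (3 libraries each), in CPM per kilobase of transcript on a log axis, ordered within each panel; open symbols mark genes with a mean log2 CPM under 0 over the 12 libraries. NKX1-2, IRX2, HOXB1, MSX2, and OTX2 lie near the top of each panel, and HOXB2 leads in NT2/D1-A4 cells only.

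The knockdown of KDM6A and KDM6B changed close to as many homeobox genes as it left uncalled. With sh6A+6B alone, 17 of 47 rose and 5 fell, or 46.8%, against 12.1% of all 16459 genes (6.34% up and 5.74% down). The median log2 fold change was 0.18 for the homeobox genes and 0.00 for all genes. Part of the list was kept in the table mainly through treated libraries: 11 genes were over 0.5 CPM in fewer than 2 of the pLKO.1 libraries, and 8 of them were called, all up. Among the other 36 genes, 9 rose and 5 fell, or 38.9%. Here and below, the share of all genes was not taken under this limit.

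**Figure D2:**
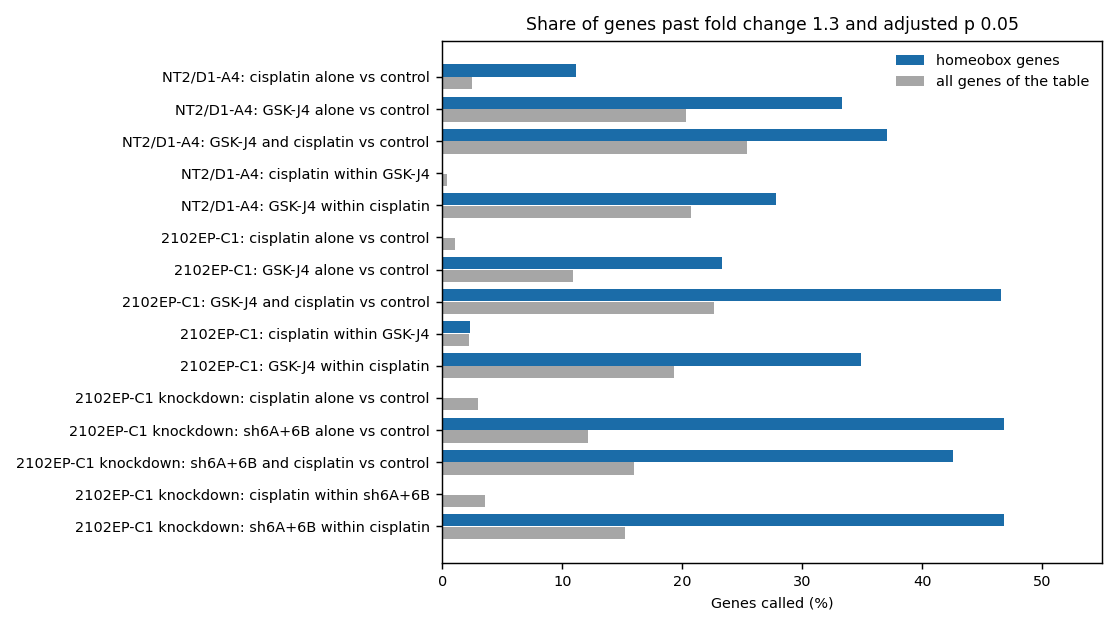
Percent of genes called in each comparison of 2 arms, for the listed homeobox genes (blue) and all genes of the same table (grey). The bars for sh6A+6B alone are 46.8% and 12.1%, and those for cisplatin alone in 2102EP-C1 cells are 0% and 1.07%.

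In the HOXA cluster, HOXA4, HOXA7, HOXA10, and HOXA13 were called up in the knockdown cells. HOXA4 was low, with 7 to 16 reads per pLKO.1 library and 39 to 53 per sh6A+6B library, and its log2 fold change was 1.92 ± 0.26. HOXA7, HOXA10, and HOXA13 were more abundant and had log2 fold changes of 0.40 to 0.61. HOXA7 went from 1.29, 1.1, and 1.37 to 1.57, 2.07, and 1.81 log2 CPM (log2 fold change 0.56). HOXA10, a regulator of the urogenital tract, went from -0.34, -0.11, and 0.03 to 0.37, 0.68, and 0.37 (0.61), and HOXA13, the last gene of the cluster, from 1.70, 1.57, and 1.75 to 2.01, 2.18, and 2.03 (0.40). None of these groups overlapped. The HOXA13 call was lost without pLKO.1 replicate 2 or without sh6A+6B replicate 2, when its log2 fold change of 0.35 was under the fold limit.

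The HOXB cluster was split. HOXB1, which specifies a hindbrain segment and is the most abundant HOX gene of 2102EP-C1 cells, had 3.94, 3.89, and 3.95 log2 CPM in the pLKO.1 libraries and 2.82, 3.00, and 3.14 in the sh6A+6B libraries. Every knockdown library was lower, and the log2 fold change was -0.94 ± 0.05 (adjusted p = 7.78e-13, limma), or to 0.520 times the control. HOXB3 rose from -0.32, -0.42, and 0.03 to 0.38, 0.65, and 0.45 (log2 fold change 0.73). HOXB13, at the far end of the cluster, rose from 0.66, 0.42, and 0.55 to 1.12, 1.15, and 1.03 (0.56). HOXB2, next to HOXB1, was not called at -0.19 (adjusted p = 0.0135, limma), and the antisense RNA HOXB-AS1 had a log2 fold change of 0.02 ± 0.09. HOXC10 and HOXD9, both low, rose by log2 fold changes of 1.21 and 0.80, while HOXC13, HOXD1, and HOXD13 were not called.

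**Figure D3:**
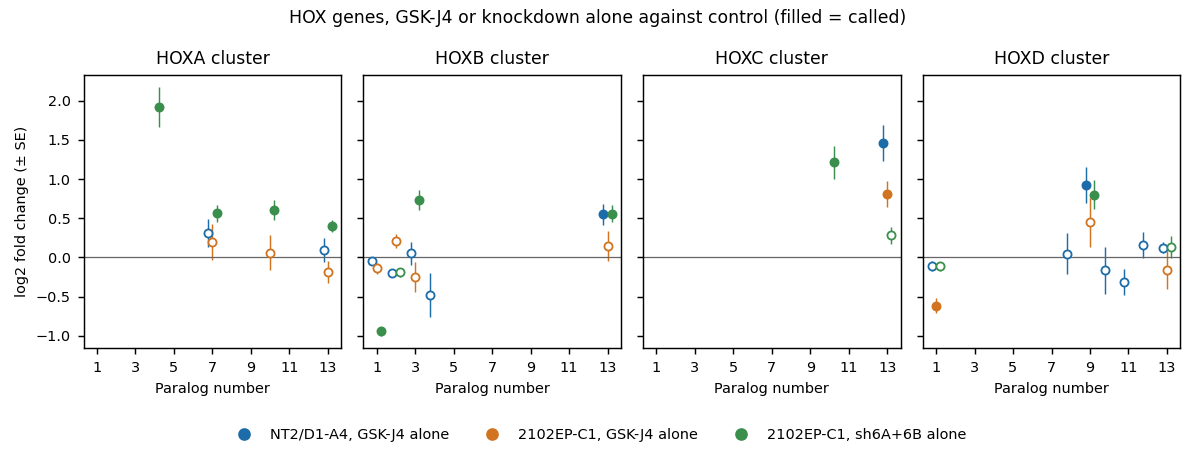
Log2 fold change (± SE) of the HOX genes reported here against their paralog number in the HOXA, HOXB, HOXC, and HOXD clusters, for GSK-J4 alone in NT2/D1-A4 (blue) and 2102EP-C1 cells (orange) and sh6A+6B alone in 2102EP-C1 cells (green); filled symbols were called. The green symbols of HOXA4, HOXA7, HOXA10, and HOXA13 are filled and lie above 0, with HOXA4 at 1.92, and HOXB1 is the single filled symbol below 0 in the HOXB panel, at -0.94.

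The MEIS genes encode partners that bind DNA together with HOX and PBX proteins, and 2 of the 3 rose. MEIS1 had 1.70, 1.87, and 1.84 log2 CPM with pLKO.1 and 2.63, 2.59, and 2.73 with sh6A+6B, a log2 fold change of 0.84 ± 0.06 (adjusted p = 3.19e-11, limma). MEIS2, low in the table, went from 41 to 50 reads per library to 120 to 122, a log2 fold change of 1.51 ± 0.17. MEIS3, the most abundant of the 3 per kilobase, had a log2 fold change of -0.28 (adjusted p = 7.58e-06, limma), under the fold limit. The MEIS rise therefore lay in its 2 less abundant members. Of 8 further cofactors of this type, the PBX, PKNOX, and TGIF genes, all were listed and none was called.

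Among SIX2 and its relatives, which act in muscle, kidney, and sensory organs, SIX4 rose from 4.46, 4.43, and 4.52 to 4.96, 4.88, and 4.87 log2 CPM (log2 fold change 0.43). SIX3, low, had a log2 fold change of 0.44. In both of these genes the 2 arms did not overlap. PAX4 and LHX4, both low, rose by 0.71 and 0.53.

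The falling genes were fewer and, apart from HOXB1, lay outside the HOX clusters. PAX5, known from B cells and the midbrain, went from 1.71, 1.63, and 1.69 log2 CPM to 0.82, 0.98, and 1.15, a log2 fold change of -0.69 ± 0.09 (adjusted p = 4.97e-07, limma). NKX3-2, a regulator of cartilage and stomach, went from 1.61, 1.56, and 1.63 to 1.01, 0.80, and 1.12 (-0.63), and IRX4, a gene of the heart ventricle, from 1.3, 1.36, and 1.36 to 0.74, 0.89, and 1.03 (-0.45). In all 3 every knockdown library was below every control. IRX3 had 0.22, 0.14, and 0.28 against -0.04, -0.18, and -0.30 (-0.39), and its call was lost without pLKO.1 replicate 1 (-0.38, adjusted p = 0.0541, limma), pLKO.1 replicate 3 (-0.35, 0.0689), or sh6A+6B replicate 3 (-0.32, 0.0852). NKX1-2 and MSX2 had log2 fold changes of 0.12 and -0.11 (adjusted p = 3.4e-05 and 0.0126, limma), under the fold limit.

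Markers of other cell types also moved in the knockdown cells. Of 8 mesoderm and primitive streak markers, 5 were listed and 4 rose, TBXT (0.73), EOMES (1.15), HAND1 (0.49), and TWIST1 (1.5), and the summed CPM of the list ran from 14.2 to 15.1 with pLKO.1 and from 23.2 to 23.8 with sh6A+6B. MESP1, TBX6, and GSC were not in the table. Of 10 neural markers, 6 were listed and ELAVL3 fell by 1.69 on the log2 scale, and the sum was 535.4 to 540.3 CPM with pLKO.1 and 458.7 to 478.7 with sh6A+6B. Of the other markers, 1 of 8 endoderm, 4 of 8 trophoblast, and 5 of 8 testis somatic genes were listed, of which ERVW-1, STAR, and DLK1 fell. Among the 9 listed embryonal carcinoma markers, TNFRSF8 rose (0.40) and no other was called, DNMT3B included. The part of these genes in the HOX and MEIS results was not tested, and in bulk libraries fewer cells of a type cannot be told apart from less RNA per cell.

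GSK-J4 alone also changed homeobox genes in both lines. In NT2/D1-A4 cells 15 of 54 rose and 3 fell with GSK-J4 alone, or 33.3%, against 20.3% of all 16431 genes (13.8% up and 6.48% down). In 2102EP-C1 cells 7 of 43 rose and 3 fell, or 23.3%, against 10.9% of 17035 (7.79% up and 3.12% down). Of the NT2/D1-A4 genes, 12 were over 0.5 CPM in fewer than 2 control libraries, and 6 of these were called, all up. The other 42 had 9 rises and 3 falls, or 28.6%. In 2102EP-C1 cells 8 genes were under this limit, with 2 called, both up, and the other 35 had 5 rises and 3 falls, or 22.9%.

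HOXC13, LHX8, MSX2, and NKX1-2 rose and SIX2 fell in both lines. Among the 39 genes listed in both tables, 6 were called in the same direction in both, which were 6 of the 13 called in NT2/D1-A4 cells (46.2%) and 6 of the 9 called in 2102EP-C1 cells (66.7%), and no gene was called in opposite directions. Over all 15663 genes listed in both tables, 902 were called in the same direction, 28.4% of the 3172 called in NT2/D1-A4 and 54.6% of the 1652 called in 2102EP-C1 cells, and 20 in opposite directions. These shares are given as a description, with no test. MSX2, a target of BMP signaling, had 4.19, 4.19, and 4.23 log2 CPM in untreated NT2/D1-A4 cells and 5.16, 5.23, and 5.25 with GSK-J4. The log2 fold change was 1.01 ± 0.04 (adjusted p = 1.21e-12, limma), a 2.02-fold rise. In 2102EP-C1 cells it went from 3.60, 3.71, and 3.71 to 4.48, 4.26, and 4.47, a log2 fold change of 0.73 ± 0.08 (adjusted p = 1.62e-07, limma). NKX1-2 had 6.29, 6.23, and 6.40 in untreated NT2/D1-A4 cells and 7.14, 7.18, and 7.23 with GSK-J4 (log2 fold change 0.88 ± 0.04). In 2102EP-C1 cells it rose from 6.83, 6.90, and 6.82 to 7.27, 7.22, and 7.34 (0.43 ± 0.05). For both genes no treated library overlapped a control.

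HOXC13, a gene of hair and nail, rose from -0.68, -0.30, and -0.41 log2 CPM to 0.89, 0.92, and 1.19 in NT2/D1-A4 cells (1.46 ± 0.22 on the log2 scale) and from 0.30, 0.51, and -0.09 to 1.03, 1.13, and 0.99 in 2102EP-C1 cells (0.81 ± 0.17). Its antisense neighbor HOXC13-AS, listed in 2102EP-C1 cells with 0 to 6 reads per control library, had a log2 fold change of 1.25 ± 0.37 (adjusted p = 0.0109, limma). LHX8, known from the basal forebrain, teeth, and oocytes, rose from 0.32, 0.41, and -0.12 to 0.79, 0.84, and 0.88 in NT2/D1-A4 cells (0.63) and from 1.11, 0.93, and 0.81 to 1.84, 1.74, and 1.78 in 2102EP-C1 cells (0.84). None of these arms overlapped.

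SIX2, a factor of nephron progenitors, fell from 1.51, 1.35, and 1.75 to 0.50, 0.85, and 0.91 in NT2/D1-A4 cells (-0.79) and from 2.97, 2.96, and 2.80 to 2.55, 2.66, and 2.33 in 2102EP-C1 cells (-0.40). The latter call was lost on the fold limit without untreated replicate 1 (-0.37), untreated replicate 2 (-0.37), or GSK-J4 replicate 3 (-0.31).

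**Figure D4:**
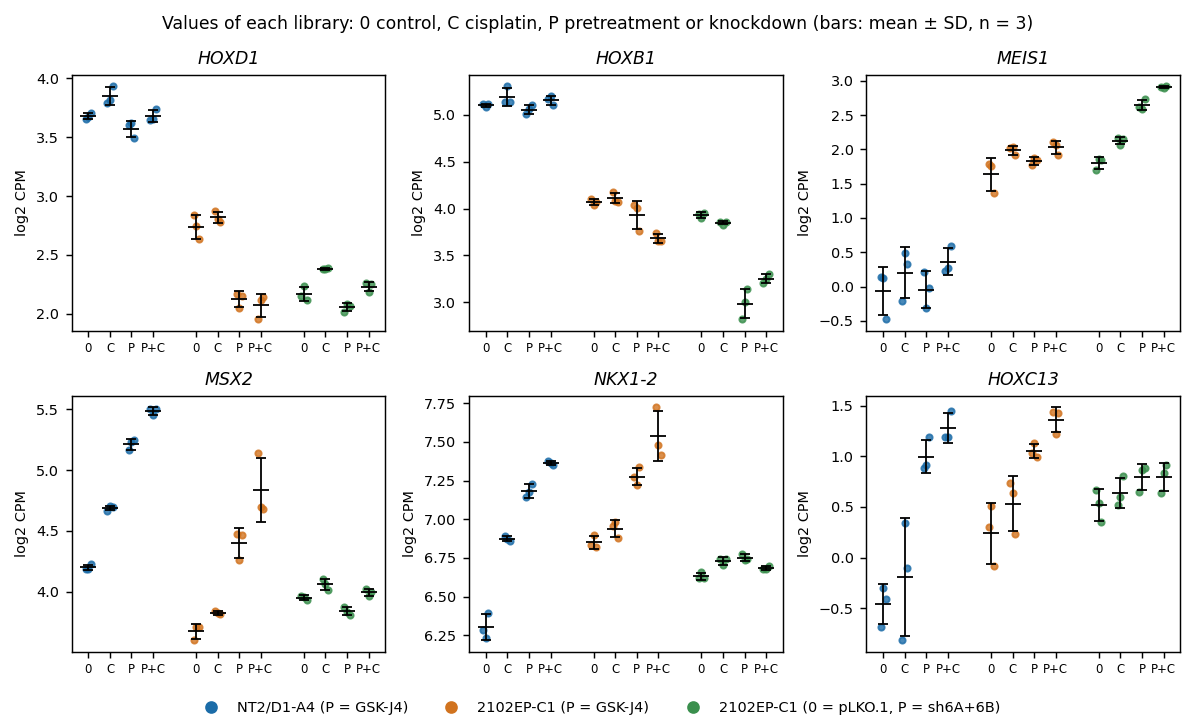
Log2 CPM of 6 homeobox genes in each library, by arm (0 control, C cisplatin, P GSK-J4 or sh6A+6B, P+C both) and experiment (colors); black bars are the mean ± SD of 3 libraries. HOXB1 falls in the green knockdown arms, MEIS1 rises there, and MSX2 rises in steps across the 4 NT2/D1-A4 arms.

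Other genes were called with GSK-J4 alone in NT2/D1-A4 cells and not in 2102EP-C1 cells, a difference that was not tested. MSX1, PAX6, IRX5, DLX2, and HOXD9, all low, rose by log2 fold changes of 1.83, 1.65, 1.39, 1.3, and 0.92. PAX6 and DLX2 had 2 to 6 and 3 to 6 reads per control library, and 16 to 26 and 13 to 22 with GSK-J4. Of these 5 genes, HOXD9 alone was listed in the 2102EP-C1 table, at 0.45 (adjusted p = 0.28, limma). LHX2, a gene of eye and forebrain, rose from 0.06, -0.14, and 0.48 to 0.73, 0.98, and 0.86 log2 CPM (0.72), NKX2-4 from 0.10, 0.07, and -0.34 to 0.56, 0.49, and 0.73 (0.65), and DLX3, a gene of skin and placenta, from -0.43, -0.30, and -0.23 to 0.29, 0.47, and 0.22 (0.64). HOXB13 rose by 0.55.

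The Iroquois (IRX) genes, which pattern neural plate and heart, gave 2 of the 3 falls in NT2/D1-A4 cells. IRX2 went from 6.26, 6.23, and 6.22 to 5.81, 5.82, and 5.74 log2 CPM, a log2 fold change of -0.45 ± 0.04 (adjusted p = 7.81e-08, limma). IRX4 went from 0.43, 0.71, and 0.08 to -0.00, -0.64, and -0.13 (-0.66), and its call was lost without untreated replicate 2 (-0.51) or GSK-J4 replicate 2 (-0.47). IRX5 rose, as given above. In 2102EP-C1 cells none of the 5 listed IRX genes was called with GSK-J4 alone.

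In 2102EP-C1 cells the falls with GSK-J4 alone were HOXD1, NKX3-2, and SIX2. HOXD1 had 2.84, 2.75, and 2.63 log2 CPM untreated and 2.17, 2.05, and 2.15 with GSK-J4, a log2 fold change of -0.61 ± 0.09 (adjusted p = 9.12e-06, limma). In NT2/D1-A4 cells, where HOXD1 was more abundant, it had a log2 fold change of -0.11 (adjusted p = 0.17, limma). NKX3-2 went from 1.90, 2.03, and 2.03 to 1.42, 1.51, and 1.29 (-0.58). PAX5 rose from 1.61, 1.60, and 1.51 to 2.02, 1.99, and 1.93 (0.41), with the call lost on the fold limit without untreated replicate 3 (0.38).

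GSK-J4 and the hairpins were compared in the same clone through the 40 genes listed in both tables. Both called 2 genes up and NKX3-2 down, which were 30% of the 10 genes called with GSK-J4 and 17.6% of the 17 called with sh6A+6B. Over all 16104 shared genes, 271 were called in the same direction, 15.9% of 1704 and 14.6% of 1855, and 109 in opposite directions. Among the homeobox genes PAX5 was called in opposite directions, up with GSK-J4 and down with sh6A+6B. MSX2, NKX1-2, HOXC13, and LHX8 rose with GSK-J4 and were not called with sh6A+6B, whereas HOXB1, HOXA7, HOXA10, and HOXA13 were called with sh6A+6B and not with GSK-J4 alone. Among cisplatin-treated 2102EP-C1 cells, GSK-J4 did call HOXB1 (-0.43) and HOXA10 (-0.66, low in that table), both down. HOXA10 thus fell there, whereas it rose with sh6A+6B. The differences between these 2 experiments were not tested. These tables have separate controls. Between GSK-J4 alone in NT2/D1-A4 cells and sh6A+6B alone, 40 homeobox genes were listed in both tables and 5 were called in the same direction, 38.5% of 13 and 31.2% of 16, with none in opposite directions. HOXB13 and HOXD9 rose and IRX4 fell in both. Over all 15130 genes of these tables, 412 were called in the same direction, 13.4% of 3076 and 26.0% of 1582, and 159 in opposite directions.

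**Figure D5:**
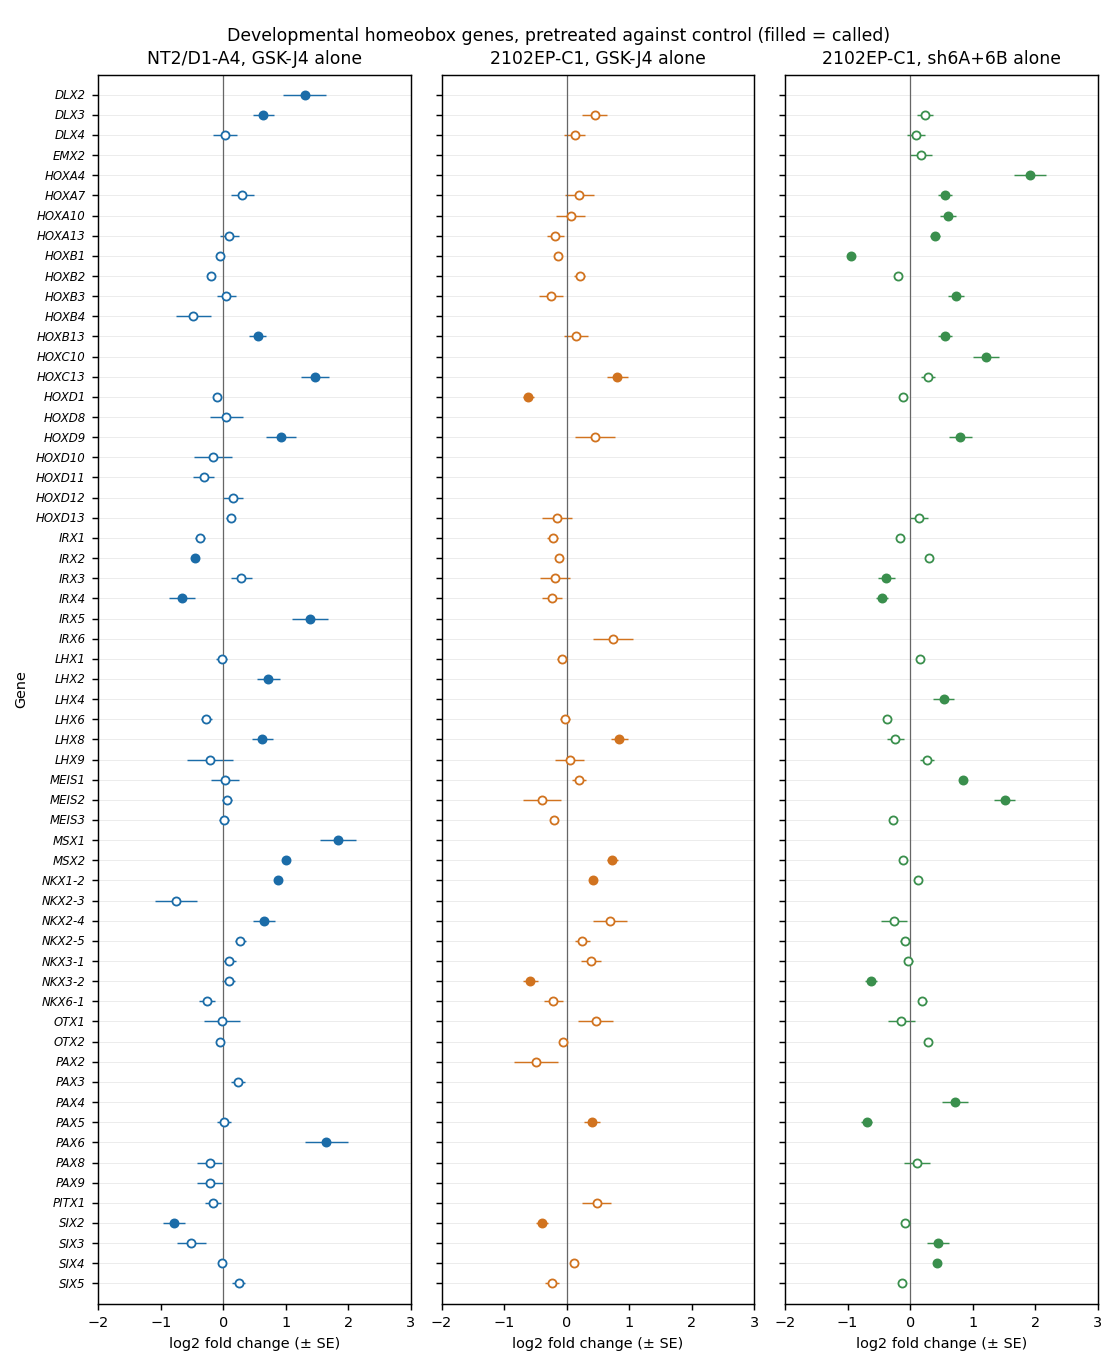
Log2 fold change (± SE) of the homeobox genes reported here with GSK-J4 alone in NT2/D1-A4 (left) and 2102EP-C1 cells (middle) and with sh6A+6B alone in 2102EP-C1 cells (right), against the control arm of the same experiment; filled symbols were called and a missing symbol means that the table does not list the gene. MSX2, NKX1-2, HOXC13, and LHX8 are filled to the right of 0 in the left and middle panels, and the HOXA genes in the right panel.

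Markers of other cell types moved with GSK-J4 as well. Of 8 endoderm and yolk sac markers, 3 were listed in both lines. GATA4 and AFP rose in both, with log2 fold changes of 0.73 and 1.41 in NT2/D1-A4 and 0.79 and 1.75 in 2102EP-C1 cells, and HNF4A rose by 2.30 in 2102EP-C1 cells. The summed CPM of this list was 2.97 to 3.49 untreated and 5.05 to 5.48 treated in NT2/D1-A4 cells and 1.13 to 1.61 and 3.06 to 3.20 in 2102EP-C1 cells, with SOX17, GATA6, FOXA2, APOA1, and TTR in neither table. Of 5 listed mesoderm markers, 3 rose in NT2/D1-A4 and 1 in 2102EP-C1 cells, and the sums were 9.98 to 11.6 untreated and 14.6 to 17.3 treated in the former and 15.9 to 16.4 and 19.4 to 21.8 in the latter. No neural marker was called in either line, GATA3 rose and ERVW-1 fell in both, and ACTA2, a smooth muscle actin, rose by 2.13 and 1.39. ACTA2 belongs to a list of 8 testis somatic markers, 5 of them listed, of which SOX9 rose by 0.57 in NT2/D1-A4 cells and AMH fell by 0.96 on the log2 scale in 2102EP-C1 cells. The sum of that list was 12 to 13.4 CPM untreated and 20.3 to 22.2 treated in NT2/D1-A4 cells, and 20.1 to 22.1 and 20.0 to 22.2 in 2102EP-C1 cells. Among embryonal carcinoma markers DNMT3B fell by 0.79 and 0.43 on the log2 scale. The part of these genes in the homeobox results was not tested.

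Cisplatin alone called few homeobox genes. In NT2/D1-A4 cells 6 of 54 rose and none fell, or 11.1%, against 2.45% of all genes (2.05% up and 0.396% down). MSX2 went from 4.19, 4.19, and 4.23 to 4.67, 4.70, and 4.70 log2 CPM (log2 fold change 0.49 ± 0.04, adjusted p = 1.31e-06, limma). NKX1-2 went from 6.29, 6.23, and 6.40 to 6.89, 6.87, and 6.86 (0.57 ± 0.04, adjusted p = 1.06e-07, limma). Both of these genes rose with GSK-J4 too, and the 2 comparisons share the untreated libraries. HOXB13 went from 0.58, 0.56, and 0.51 to 0.97, 1.13, and 1.25 (0.57), a call lost without cisplatin replicate 3 (0.50, adjusted p = 0.0573, limma). HOXD13, a gene of digits and genitalia, went from 3.39, 3.40, and 3.64 to 3.81, 3.87, and 3.97 (0.41), and SIX4 from 4.27, 4.24, and 4.22 to 4.63, 4.57, and 4.69 (0.39). Both passed the fold limit narrowly: HOXD13 was under it without untreated replicate 1 (0.37), untreated replicate 2 (0.37), or cisplatin replicate 3 (0.37), and SIX4 without untreated replicate 3 (0.38) or cisplatin replicate 3 (0.35). Without cisplatin replicate 3 the number of called genes was 3 and not 6. Of the markers of other cell types, EOMES (0.77), HNF4A (1.01), and GATA3 (0.47) rose with cisplatin alone, and the mesoderm sum was 9.98 to 11.6 CPM untreated and 13.8 to 15.1 treated. Their part in the homeobox results was not tested.

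In 2102EP-C1 cells cisplatin alone called none of the 43 genes by limma, against 1.07% of all genes (0.881% up and 0.188% down), with 5 at an unadjusted p under 0.05 and 0 at an adjusted p under 0.05. In pLKO.1 cells none of the 47 was called, against 3.0% of all genes (2.53% up and 0.462% down), but 12 had an unadjusted p under 0.05 and 9 an adjusted p under 0.05 with folds below the limit. Among these 9 was MEIS1, with 1.70, 1.87, and 1.84 log2 CPM in untreated and 2.16, 2.07, and 2.16 in treated pLKO.1 cells (log2 fold change 0.33, adjusted p = 0.00014, limma). The others included HOXB2 (-0.21), HOXD1 (0.21), MSX2 (0.11), and NKX1-2 (0.10). With voom weights none of the genes was called in either comparison. Of the markers of other cell types, ACTA2 alone was called, with log2 fold changes of 0.71 in 2102EP-C1 and 0.87 in pLKO.1 cells.

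After GSK-J4 or the knockdown, cisplatin called 1 gene at most, while more genes had an adjusted p under 0.05 below the fold limit. In GSK-J4-treated NT2/D1-A4 cells none of the 54 genes was called, against 0.377% of all genes (0.158% up and 0.219% down), with 11 at an unadjusted p under 0.05. MSX2 (0.27), SIX4 (0.27), NKX1-2 (0.18), and OTX2 (-0.18) had an adjusted p under 0.05 below the fold limit. In GSK-J4-treated 2102EP-C1 cells MSX2 alone was called of 43 genes (2.33%, against 2.22% of all genes, 0.916% up and 1.31% down), from 4.48, 4.26, and 4.47 to 5.14, 4.70, and 4.68 log2 CPM, a log2 fold change of 0.44 ± 0.08. The library of replicate 1 with both agents was the highest, and without it the log2 fold change was 0.28 and not called, as it was without GSK-J4 replicate 2 (0.36). In sh6A+6B cells none of the 47 genes was called, against 3.52% of all genes (2.48% up and 1.04% down), with 18 at an unadjusted p under 0.05 and 2 called with voom weights. Of these 47 genes, 13 had an adjusted p under 0.05 below the fold limit. In GSK-J4-treated 2102EP-C1 cells 6 of 43 had an adjusted p under 0.05, MSX2 among them.

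The interaction asked whether the cisplatin effect differed with and without GSK-J4 or knockdown. NKX1-2 in NT2/D1-A4 cells was called, 1 of 54 genes (1.85%) against 0.0426% of all genes, all of those down (0.0% up). Its cisplatin log2 fold change was 0.57 without GSK-J4 and 0.18 after it, where it went from 7.14, 7.18, and 7.23 to 7.37, 7.36, and 7.35 log2 CPM, and the difference was -0.39 ± 0.06 (adjusted p = 0.0147, limma). The call was lost without untreated replicate 1 (-0.38) or 2 (-0.35), cisplatin replicate 2 (-0.39), GSK-J4 replicate 2 (-0.39) or 3 (-0.37), or replicate 2 of both agents (-0.39). In 2102EP-C1 cells none of 43 genes was called for the GSK-J4 interaction (0.857% of all genes, 0.194% up and 0.663% down), with 8 at an unadjusted p under 0.05. In the knockdown none of 47 was called (3.77% of all genes, 1.09% up and 2.67% down), with 8 at an unadjusted p under 0.05 and 1 called with voom weights. HOXB1 had 3.85, 3.83, and 3.86 log2 CPM in cisplatin-treated pLKO.1 cells and 3.20, 3.25, and 3.30 in cisplatin-treated sh6A+6B cells. Its interaction was 0.35 ± 0.08 (adjusted p = 0.00093, limma), under the fold limit.

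The arms given cisplatin on top of GSK-J4 or the hairpins were compared with the same untreated or pLKO.1 libraries as above, so these comparisons share their controls. Against the same untreated libraries, the NT2/D1-A4 arm that received both agents had 15 rises and 5 falls among 54 genes (37.0%, against 25.4% of all genes, 15.9% up and 9.56% down). Of the 12 genes over 0.5 CPM in fewer than 2 control libraries, 4 were called, all up. The other 42 had 11 rises and 5 falls, or 38.1%. Without replicate 1 or 3 of both agents, the replicates that stood apart, 21 and 19 genes were called. MSX2 stood at 5.50, 5.45, and 5.50 log2 CPM, a log2 fold change of 1.29. HOXC13 had a log2 fold change of 1.74 and MSX1, low, 2.11. IRX1 joined IRX2 and IRX4 among the falls, from 3.66, 3.72, and 3.72 to 3.36, 3.15, and 3.03 (-0.52), and LHX6, a gene of cortical interneurons, went from 3.03, 2.90, and 2.98 to 2.57, 2.48, and 2.47 (-0.47). SIX2 was called at -0.47, and lost without untreated replicate 1 (-0.48), untreated replicate 3 (-0.36), or replicate 3 of both agents (-0.28).

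In 2102EP-C1 cells given both agents 9 of 43 genes rose and 11 fell (46.5%, against 22.6% of all genes, 12.8% up and 9.77% down). Of the 8 genes over 0.5 CPM in fewer than 2 control libraries, 2 rose and 2 fell. The other 35 had 7 rises and 9 falls, or 45.7%. The falls included genes that GSK-J4 alone had not called. HOXB1 went from 4.1, 4.04, and 4.07 to 3.74, 3.66, and 3.65 log2 CPM, a log2 fold change of -0.39 ± 0.07 (adjusted p = 2.08e-05, limma). This was a 1.309-fold fall, narrowly past the limit of 1.3, and the call is not among those followed with a library left out. MEIS3 went from 4.2, 4.19, and 4.3 to 3.77, 3.81, and 3.87 (-0.41), and IRX4 from 1.16, 1.68, and 1.44 to 0.71, 1.06, and 0.61 (-0.64). HOXB1, MEIS3, and IRX4 already had log2 fold changes of -0.14, -0.20, and -0.23 with GSK-J4 alone. The added change with cisplatin after GSK-J4 was not called for any of them. For HOXB1 (-0.25, adjusted p = 0.0116, limma) and MEIS3 (-0.21, adjusted p = 0.0163, limma) it missed the fold limit alone. IRX4 had -0.40 (adjusted p = 0.0902, limma). PAX2 and MEIS2, both low with 2 to 9 and 5 to 12 reads per library in this arm, had log2 fold changes of -1.15 and -0.94. SIX2, HOXD1, and NKX3-2 fell again, with log2 fold changes of -0.75, -0.67, and -0.65 here and of -0.40, -0.61, and -0.58 with GSK-J4 alone. MSX2 led the rises at 1.17, followed by HOXC13 (1.12), and MEIS1 rose by 0.40. The MEIS1 call was lost without untreated replicate 3 (0.26) or replicate 1 of both agents (0.36).

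In the knockdown cells given cisplatin, 15 of 47 genes rose and 5 fell against untreated pLKO.1 cells (42.6%, against 16.0% of all genes, 8.51% up and 7.5% down). Of the 11 genes over 0.5 CPM in fewer than 2 untreated pLKO.1 libraries, 8 were called, all up. The other 36 had 7 rises and 5 falls, or 33.3%. MEIS1 was at 2.91, 2.90, and 2.92 log2 CPM (log2 fold change 1.11 ± 0.06). OTX2, a gene of the forebrain and of pluripotent cells, rose from 3.70, 3.66, and 3.73 to 4.24, 4.19, and 4.18 (0.50 ± 0.04, adjusted p = 1.59e-11, limma). LHX6 fell from 3.73, 3.74, and 3.78 to 3.20, 3.32, and 3.29 (-0.48). HOXB1 (-0.68), NKX3-2 (-0.80), PAX5 (-0.80), and IRX4 (-0.60) fell as with the hairpins alone. Set against cisplatin-treated pLKO.1 cells instead, 16 genes rose and 6 fell (46.8%, against 15.2% of all genes, 6.4% up and 8.77% down), with HOXB1 at -0.60. Of the same 11 genes 7 rose and 1 fell there, and of the other 36, 9 rose and 5 fell (38.9%). In the GSK-J4 experiments the same comparison within cisplatin-treated cells gave 10 rises and 5 falls in NT2/D1-A4 (27.8%, against 20.7%, 12.8% up and 7.84% down; 17 and 12 genes called without replicate 1 or 3 of both agents) and 6 rises and 9 falls in 2102EP-C1 cells (34.9%, against 19.3%, with 8.82% down). Among the 42 and 35 genes over 0.5 CPM in at least 2 untreated libraries, 28.6% and 37.1% were called. Markers of other cell types moved in the arms given both treatments too. Against their controls, 4, 2, and 3 of 5 listed mesoderm markers rose in NT2/D1-A4, 2102EP-C1, and sh6A+6B cells, 3 of 3 listed endoderm markers rose in each GSK-J4 experiment, and DNMT3B fell in all 3 experiments (-0.89, -0.77, and -0.56). Of the other embryonal carcinoma markers, SOX2 (-0.43) fell in NT2/D1-A4 and TNFRSF8 (-0.65) in 2102EP-C1 cells. Of the neural markers, TUBB3 (0.51) rose in NT2/D1-A4 and ELAVL3 (0.42) in 2102EP-C1 cells. In sh6A+6B cells NES (-0.51) and ELAVL3 (-1.06) fell, and the neural sum was 371.8 to 394.9 CPM, against 535.4 to 540.3 in untreated pLKO.1 cells. Genes of the trophoblast and testis somatic lists were called in each experiment too. The part of all these markers in the homeobox results was not tested.

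Genes related to the homeobox factors were counted in the same way. Beside these counts, GSK-J4 alone called 20.3% of all genes in NT2/D1-A4 and 10.9% in 2102EP-C1 cells, and sh6A+6B alone called 12.1%. Among other homeobox factors outside these families, 39, 40, and 38 of 79 were listed, and GSK-J4 alone called 9 up and 3 down in NT2/D1-A4 and 6 up and 3 down in 2102EP-C1 cells, while sh6A+6B alone called 7 up and 4 down. ISL2, a motor neuron factor, had a log2 fold change of 1.54 and 1.37 with GSK-J4 and of -0.61 with sh6A+6B, and HHEX, an endoderm and blood factor, rose by 1.93 with sh6A+6B. Of 18 genes of the retinoic acid pathway, 13, 15, and 15 were listed. CYP26A1, which degrades retinoic acid, rose by 0.88 and 0.49 with GSK-J4, ALDH1A3, which makes it, by 1.34 and 0.80, and the receptor gene RARG fell by 0.51 and 0.43 on the log2 scale. With sh6A+6B the receptor genes RARB (-0.48), RXRA (-0.55), and RXRG (-0.42) fell. Of 32 polycomb subunits, 32, 31, and 31 were listed and 4, 2, and 4 were called, near or under the shares of all genes. PCGF5 rose by 0.72 and 0.57 with GSK-J4, RING1 (-0.54) and CBX2 (-0.50) fell in NT2/D1-A4 cells, and with sh6A+6B YAF2 (0.67) and JARID2 (0.40) rose and CBX7 (-0.51) and PCGF3 (-0.46) fell. Of 14 trithorax genes and H3K27 demethylases, 14, 13, and 13 were listed, with KMT2A, KMT2C, and PAXIP1 falling in NT2/D1-A4 cells after GSK-J4 alone (-0.43, -0.59, and -0.40). In 2102EP-C1 cells GSK-J4 alone and sh6A+6B alone called none of this list outside KDM6A and KDM6B. With cisplatin added, KMT2B (-0.43) and MEN1 (-0.41) fell with GSK-J4, and KMT2A (-0.49) and KMT2D (-0.71) with sh6A+6B, each against the untreated control.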

How the data were processed

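RNA from 36 libraries, 12 in each of 3 experiments, was sequenced by the study's authors. Per the study's methods and the submitters' processing notes, the reads were trimmed with Trimmomatic, aligned with STAR to GRCh38.p14, and counted per gene with featureCounts; the stated filter kept genes over 0.5 CPM in at least 2 libraries. The versions and the strand setting of the counting were not given in the sources used here. The deposited values are log2 CPM per gene with a prior count of 3 and TMM-scaled library sizes, as the values themselves show: undoing these steps gave whole reads (within 0.05) for 100% of values under 50 reads. By these reads, 15964 of 16431, 16492 of 17035, and 16273 of 16459 genes of the 3 tables passed the stated filter, so each table holds some rows under it.

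Group means over the 12 libraries of each table were fitted to the deposited log2 values with limma 3.58.1 (trended variance, two-sided, Benjamini-Hochberg adjustment over all genes of the table), tested first on simulated data. Calls required more than a 1.3-fold difference together with an adjusted p under 0.05. No test was made between tables, which were normalized separately. The p-values measure the spread between cultures of 1 clone. Separate transductions for the replicates of the third experiment are not stated, so the spread between transductions may not be included. The homeobox genes, the other gene lists, and the alternatives were chosen with earlier results of these data known. Genes given with all library values were chosen among those with a mean log2 CPM of at least 0 (up to 8 per direction and comparison, by size of the change), those called in the same direction by GSK-J4 alone in both lines or by GSK-J4 alone and sh6A+6B alone in 2102EP-C1 cells, and those called in the interaction; of each other list, up to 4 called genes were named. HOXC13-AS, HOXB-AS1, uncalled genes given with values, and the reads of low genes were added after their values were seen. Some genes of the lists are counted but not reported here by name. Alternatives were the prior count, low-value filters, thresholds, voom weights, robust variance, library scaling, a replicate block, only the arms compared, and leaving out each library. Transcript lengths came from GENCODE 44, promoters from RefSeq.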

Additional observations from a re-analysis of the deposited data

Results flagged for a closer look

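In NT2/D1-A4 cells the cisplatin effect on NKX1-2 differed with and without GSK-J4 by a log2 difference of -0.39, as the interaction term of the fit showed (adjusted p = 0.0147, limma). It was 0.57 in untreated and 0.18 in GSK-J4-treated cells. The interaction call was lost in 6 of 12 fits with 1 library left out, and with a fold over 1.2 and adjusted p under 0.001.

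Some genes moved in opposite directions in the 2 lines, with every library of one line above and every library of the other below its comparison arm. For each of these genes the difference between the lines was not tested, and none passed the fold limit apart from MEIS2 in 2102EP-C1 cells. HOXB2 had a log2 fold change of -0.19 in NT2/D1-A4 and 0.21 in 2102EP-C1 cells with GSK-J4 alone, and of -0.20 and 0.21 with GSK-J4 and cisplatin. OTX2 had -0.23 and 0.14 with both agents against untreated cells, and -0.18 and 0.20 for cisplatin after GSK-J4. For cisplatin after GSK-J4, HOXB1 had 0.10 in NT2/D1-A4 and -0.25 in 2102EP-C1 cells, and PAX5 had 0.28 and -0.17. MEIS2 had 0.23 and -0.92 for GSK-J4 among cisplatin-treated cells, and it was low in 2102EP-C1 cells. The genes of this paragraph were picked from the 39 listed in both lines, over 5 comparisons of 2 arms, by non-overlap alone. The share of all genes that moved in this way is not given, so the list is a description only.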

How the results depend on the processing

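Of 119 pairs of a named gene and a comparison, 0 turned direction over 2547 alternative values, and 105 of these values lost the call. The lost calls were 34 under a fold change over 1.2 with an adjusted p under 0.001, 64 with a library left out, 3 without TMM scaling, 2 with only the arms compared, 1 with robust variance, and 1 with voom weights. With 1 library left out, 93 of the 119 pairs kept the call in every fit and 26 lost it in at least 1. The numbers of genes called depended on the limits. With a log2 CPM over 1 in every library, GSK-J4 alone, GSK-J4 with cisplatin, and GSK-J4 among cisplatin-treated cells called 3, 6, and 5 genes in NT2/D1-A4 and 6, 11, and 7 in 2102EP-C1 cells, and the 3 like comparisons of sh6A+6B called 4 each. With a mean log2 CPM of at least 0, the sh6A+6B comparisons called 13, 11, and 13. These filters test fewer genes. With the fold over 1.2 and adjusted p under 0.001, the same comparisons called 9, 13, and 9 genes in NT2/D1-A4 cells. The 2102EP-C1 clone had 6 with GSK-J4 alone and 10 with GSK-J4 and cisplatin. At that setting the NT2/D1-A4 interaction called 0 genes, cisplatin after GSK-J4 in 2102EP-C1 cells 2, cisplatin in pLKO.1 cells 1, cisplatin in sh6A+6B cells 3, and the knockdown interaction 1. With the fold limit dropped and the adjusted p limit kept at 0.05, cisplatin after GSK-J4 called 4 in NT2/D1-A4 and 6 in 2102EP-C1 cells, and in the knockdown experiment cisplatin alone called 9, sh6A+6B with cisplatin 32, cisplatin in sh6A+6B cells 13, and the interaction 6. Cisplatin in sh6A+6B cells called 1 gene with a prior count of 0.5 and 2 with voom weights. The knockdown interaction called 1 gene with voom weights, with library sizes without TMM, and with robust variance.

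With 1 library left out, cisplatin alone called 3 to 6 genes in NT2/D1-A4 cells (3 without cisplatin replicate 3) and 0 to 1 in pLKO.1 cells. The interactions ranged over 0 to 1 in NT2/D1-A4, 0 to 2 in 2102EP-C1, and 0 to 2 in the knockdown. Cisplatin after GSK-J4 in 2102EP-C1 cells called 0 to 5, and cisplatin in sh6A+6B cells 0 to 2. The cause of these changes was not tested. Same-numbered libraries did not deviate together throughout (correlations of -0.222 to 0.377, -0.141 to 0.103, and -0.239 to 0.401 in the 3 experiments), so the numbers were not taken as pairs. A replicate block kept the call of all 119 pairs, and with it the knockdown interaction called 1 gene. The interaction could not be fitted with only the arms compared. Low genes rest on few reads, and their log2 fold changes depend on the prior count.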
